A study of Mus musculus with 22 samples.

Results

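Heat shock and chaperone genes were followed through mitotic exit by the peaks of RNA polymerase II (PolII) that lie on them. The members were taken by gene symbol from the GENCODE vM1 annotation of the mm9 mouse genome, Hspa8, Hspa5, Hspa9, Hspa4, Hsp90aa1, Hsp90ab1, Hsp90b1, Hspd1, Hspe1 and Hsph1, which are 10 of 22350 protein-coding genes. A peak was assigned to a gene when it overlapped the gene plus and minus 1 kb by at least 1 bp. The symbols were chosen without reference to a measured value, but with earlier results of these data known.

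PolII chromatin immunoprecipitation followed by sequencing (ChIP-seq) was performed in G1E-ER4 cells, a mouse erythroblast line derived from GATA1-null proerythroblasts. In the subline used, both Ctcf alleles carry an auxin-inducible degron with mCherry, and the plant F-box protein OsTiR, which targets the degron upon auxin addition, was delivered with GFP by a retroviral vector. These alterations are shared by control and auxin-treated cells. Cells were held in prometaphase with nocodazole (200 ng/ml) and collected at 0 h (prometaphase) or at 1 h (early-G1), 2 h (mid-G1) or 4 h (late-G1) after release, with auxin (auxin-treated) or without it (control). Per the study's methods, auxin was added for the last 4 h of the nocodazole arrest and kept in the medium after release. The auxin-treated prometaphase cells had thus already received it. Each stage has 2 control and 2 auxin-treated PolII libraries, except mid-G1 with 3 and 3, which makes 18. The control libraries of late-G1 are numbered 2 and 3. All libraries come from this engineered line, the cells were sorted by stage and mCherry before sequencing, and whether the line is 1 clone is not stated in the sources used here. The replicates are numbered in the labels and called biological by the study.

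Heat shock proteins bind unfolded or partly folded polypeptides. Hsp70 proteins hold exposed hydrophobic stretches in cycles of ATP hydrolysis that J-domain proteins start and nucleotide exchange factors of the Hsp110 family end, and Hsp90 proteins act later on nearly folded clients such as kinases and steroid receptors. Each compartment has its own set: Hspa8, Hsp90aa1, Hsp90ab1, Hspa4 and Hsph1 serve the cytosol, Hspa5 (BiP) and Hsp90b1 (Grp94) the endoplasmic reticulum, and Hspa9 (mortalin), Hspd1 (Hsp60) and Hspe1 (Hsp10) the mitochondrial matrix. Several of the cytosolic and mitochondrial members are textbook targets of heat shock factor 1, and the reticulum members of the unfolded protein response. In erythroid precursors Hsp70 is known for protecting GATA1 from cleavage.

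The sequencing depth of a library is not given in its list, and a relative depth recovered from the fold enrichment and p-value of each peak ranged from 4.93 to 5.95 reads per kb in prometaphase and from 4.54 to 13.3 in the post-mitotic libraries. The study's reporting summary lists read counts for the PolII libraries, and all depths given here are the recovered ones. The prometaphase lists hold 2414 to 3918 peaks and the post-mitotic lists 50594 to 117125. All 10 erythroid progenitor markers examined, among them Gata2, Kit and Tfrc, had a peak in all 14 post-mitotic libraries. Of 10 markers of other cell types, 9 had no peak in any library, and Gfap had one in 11 post-mitotic libraries. A gene is called covered where a peak lies on it, and where no peak lies the signal did not pass the caller's threshold, which is not the same as absence. Fewer cells with PolII on a gene and less PolII per cell cannot be told apart in these bulk libraries.

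All 10 members had at least 1 peak in each of the 14 post-mitotic libraries, but the peaks lay on different sections of the genes. Hsp90aa1 and Hsp90ab1, the stress-responsive and the constitutive cytosolic Hsp90, carried their strongest peak just after the transcript start. The summit of the best Hsp90aa1 peak (chr12:111928815-111940938, minus strand) lay in the 5′ leader of a coding transcript in 14 of 14 post-mitotic libraries, 110 to 144 bp after the start of the first-numbered transcript. That transcript starts at base 111934605, inside the annotated gene, whose farthest start at base 111940938 belongs to the single transcript Hsp90aa1-006. In Hsp90ab1 (chr17:45704724-45710220, minus strand) the summit lay 31 to 94 bp after the start in 13 of 14 libraries, and in late-G1 control replicate 3 it lay 280 bp past the gene end. Peaks covered between 98.6% and 100.0% of the Hsp90ab1 window after mitosis, so the whole gene was occupied, together with the part of its neighbour Slc35b2 that lies within 1 kb.

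Hspa8, the constitutive cytosolic Hsp70 (chr9:40609067-40613283, plus strand), had its best summit 292 to 365 bp after the first-numbered start in 12 of 14 post-mitotic libraries, next to the inner coding starts at bases 40609318 and 40609385. In mid-G1 control replicate 3 and late-G1 control replicate 3 the best summit lay 1663 and 1681 bp past the gene end, on a peak that reaches into the window. The small nucleolar RNA genes Snord14c, Snord14d and Snord14e lie inside Hspa8, and their signal cannot be told apart from that of the host. Hspa4 (chr11:53073316-53113959, minus strand) and Hsph1 (chr5:150416862-150438951, minus strand), both of the Hsp110 family of nucleotide exchange factors, are the longest members with 40644 and 22090 bp. The best Hspa4 summit lay within 500 bp of the start in 11 of 14 libraries, and in the other 3, all in mid-G1, it lay 557 to 984 bp before the gene end. The best Hsph1 summit lay 64 to 118 bp after the start in 11 of 14 libraries and at −524 to −545 bp, upstream of it, in the other 3, all in early-G1.

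**Figure D1:**
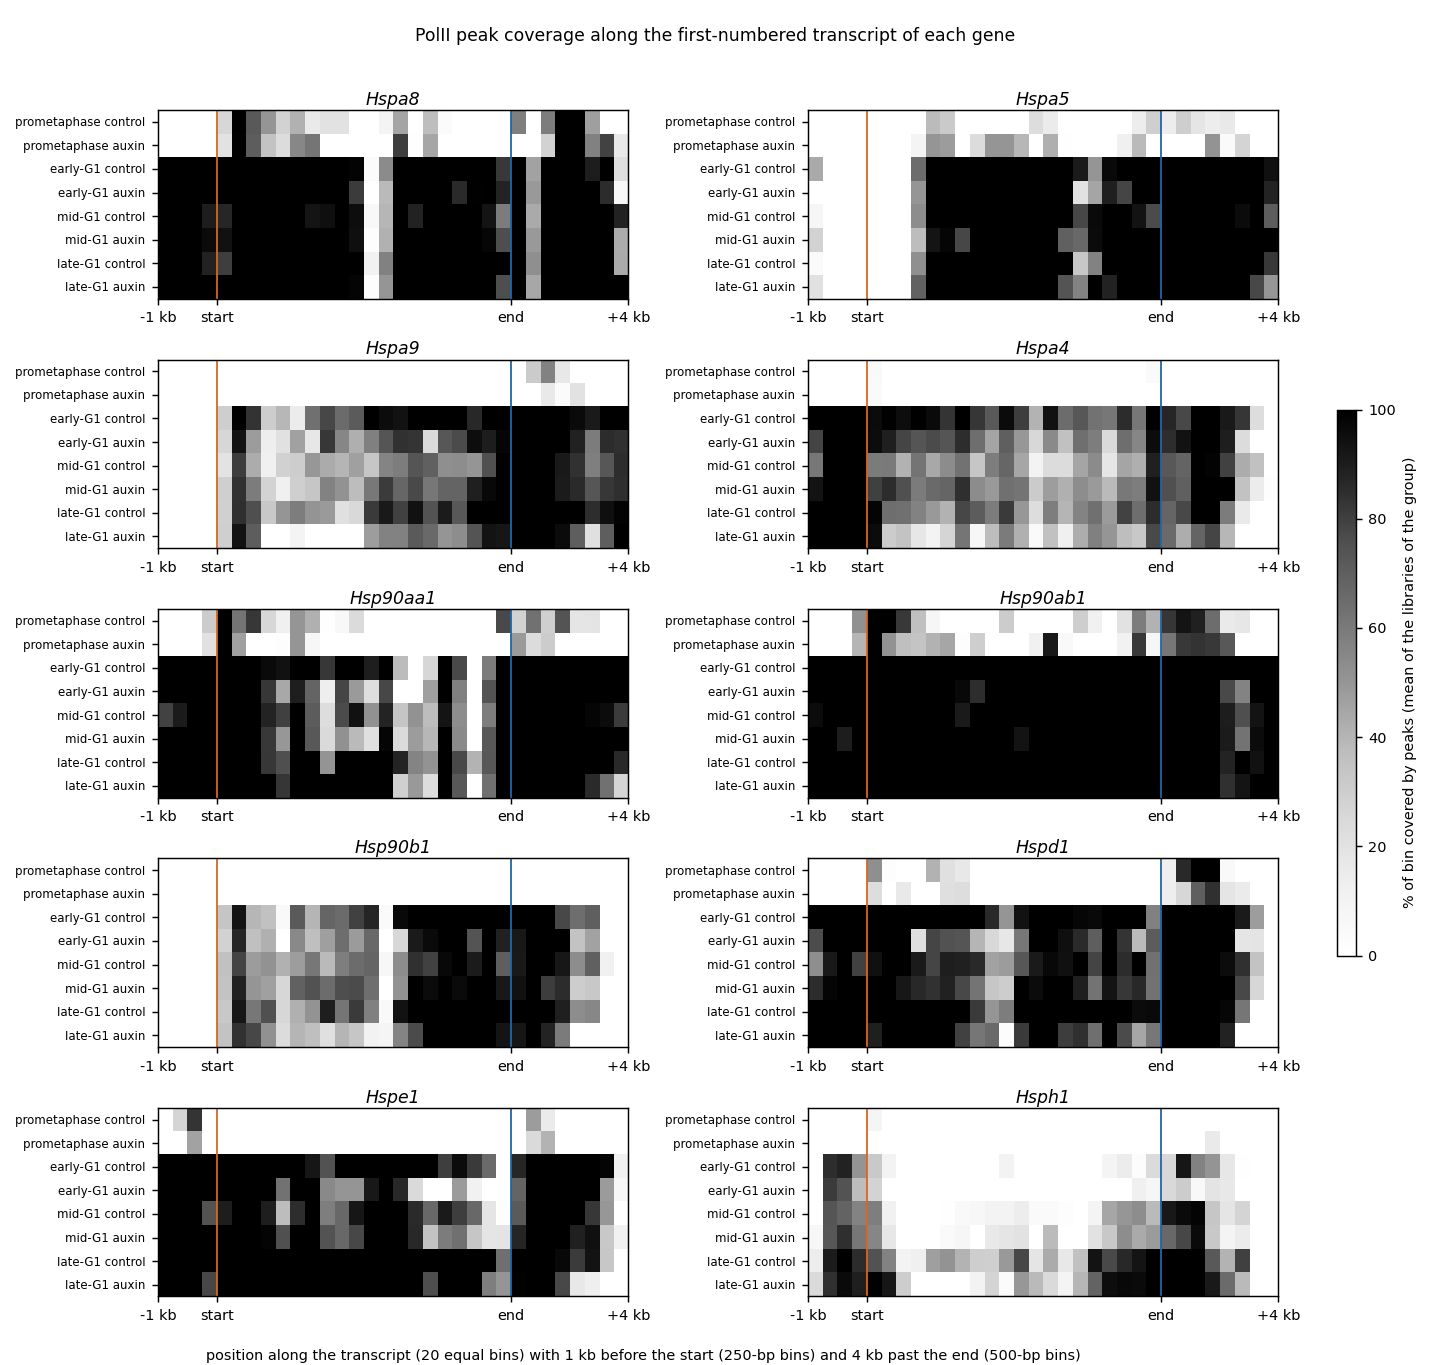
PolII peak coverage along the first-numbered transcript of each member, from 1 kb before the start (orange line) to 4 kb past the end (blue line). Rows are the 8 groups from prometaphase (top) to late-G1, and the grey scale is the mean percent of a bin covered by peaks, from 0 to 100. Hsp90ab1 was covered over 98.6% to 100.0% of its window after mitosis, the first-numbered starts of Hspa5, Hspa9 and Hsp90b1 had no peak, and Hsph1 filled last and mostly at its 3′ end.

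No peak was called at the first-numbered start of Hspa5, Hspa9 and Hsp90b1. Hsp90b1 has a second coding start farther inside, with a peak within 500 bp of it in 14 of 14 post-mitotic libraries. In Hspa5 (chr2:34627490-34632051, plus strand) the peak-free stretch reached from 864 to 3242 bp upstream of the first-numbered start, depending on the library, to 707 to 934 bp after it. In Hsp90b1 (chr10:86152954-86168254, minus strand) it reached from 1082 to 1194 bp upstream to 447 to 544 bp after the start, and in Hspa9 (minus strand of chromosome 18) from 1145 to 1701 bp upstream to 578 to 922 bp after it. The start base was uncovered in all 14 post-mitotic libraries for 3 of 10 members and for 968 of 6716 genes that have a peak in those libraries and a first-numbered coding transcript (14.4%). The 300-base promoters of the 3 genes held 62.0%, 65.3% and 63.0% G and C (Hspa5, Hsp90b1 and Hspa9), against a median of 60.3% over 6718 promoters. Their strongest peaks lay mostly at the other end: past the gene end in 13 of 14 post-mitotic libraries for Hspa9 and in 10 of 14 for Hspa5, while for Hsp90b1 the summit lay between −223 and 509 bp from the end. In 7 of 14 libraries for Hspa9 and 6 of 14 for Hspa5 the best summit lay beyond the 1 kb flank. The rank in those libraries is that of a peak centred outside the window. The Hsp90b1 window also holds 1810014B01Rik, AC152453.1, BC030307 and Gm15344, and the Hspa9 window SNORD63. Signal of these genes cannot be told apart from that of the members. The authors discarded reads of low mapping quality and blacklisted intervals, and the part of these steps in the gaps was not tested.

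Hspd1 (chr1:55134679-55145087, minus strand) and Hspe1 (chr1:55144976-55148151, plus strand) encode the barrel and the lid of the mitochondrial chaperonin and are transcribed away from each other, with 108 bp between their first-numbered starts. Their windows overlap, so a peak on the shared promoter was counted for both, and their values are not independent. The best Hspe1 summit lay at −361 to −414 bp, upstream of its own start, in 13 of 14 post-mitotic libraries, which is inside Hspd1. In late-G1 control replicate 3 a single peak of 19489 bp spanned both genes, with its summit past the Hspd1 end. The best Hspd1 summit lay past its 3′ end in 11 of 14 libraries and 253 to 285 bp after its start in the other 3, all auxin-treated.

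The DNA near the starts is shown for some of the members that hold the element of the heat shock or the reticulum stress response. A heat shock element is a row of GAA and TTC units separated by 2 bases, and 3 units in a row (GAANNTTCNNGAA or TTCNNGAANNTTC, both strands being covered by the pair of patterns) occurred within the 300 bases from 250 upstream to 50 downstream of the first-numbered start in 3 of 10 members, Hsp90aa1, Hspd1 and Hspe1, of which the last 2 share the same element. The share over 13979 promoters was 0.472%, and over 6718 promoters of genes with a peak in all 14 post-mitotic libraries 0.566%. Farther into the transcript, outside that window, Hspa8 holds such rows from bases 80 and 238, and Hsp90b1 holds one from base 252. In Hsph1 a row from base 39 crosses the edge of the window. No share over all promoters is given for this wider stretch, so these matches have no background beside them. In the runs below, read 5′ to 3′ on the strand of the gene from mm9, capitals mark pairs or rows of GAA and TTC units.
Hspd1 and Hspe1, chr1:55144899-55144928, minus strand, between the 2 starts: gcggggccTTCCGGAAGGTTCTAGAAcgga
Hspa8, chr9:40609138-40609167, plus strand: gcgagcgtGAAAGTTCCAGAAcgccgcggt
Hspa8, chr9:40609296-40609325, plus strand: cggcacccTTCTGGAAGGTTCtaagacagg
Hsph1, chr5:150438854-150438883, minus strand: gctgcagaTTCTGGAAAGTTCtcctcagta
The second Hspa8 row begins at base 238, followed by the inner start at base 40609318. The median summit of the Hspa8 start peak lay at 336 bp, downstream of these rows.

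The endoplasmic reticulum stress response element, CCAAT and CCACG separated by 9 bases (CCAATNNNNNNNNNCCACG or its reverse complement), was found in 2 of 10 member promoters, Hspa5 and Hsp90b1, and in 14 of 13979 promoters (0.100%). Both are shown upstream of the first-numbered start, with the element in capitals, because neither has a peak there.
Hspa5, chr2:34627465-34627611, plus strand: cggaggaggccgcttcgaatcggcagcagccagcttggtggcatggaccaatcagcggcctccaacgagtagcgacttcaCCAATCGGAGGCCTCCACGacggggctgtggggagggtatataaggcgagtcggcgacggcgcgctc
Hsp90b1, chr10:86168255-86168434, minus strand: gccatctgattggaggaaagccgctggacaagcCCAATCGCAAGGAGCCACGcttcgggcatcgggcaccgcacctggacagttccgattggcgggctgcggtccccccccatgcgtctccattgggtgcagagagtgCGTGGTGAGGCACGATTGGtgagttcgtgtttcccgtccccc
Hspa5 holds 1 element, 70 bases before the first-numbered start and downstream of the farthest annotated start at base 34627490. Hsp90b1 holds 2, which begin 147 and 42 bases before its start in opposite orientations. The plain TATAAA box was found in 0 of 10 member promoters, and GGGCGG, a GC box, in 9 of 10. Over all promoters the shares were 12.4% and 47.8%. Over the promoters of genes with a peak in all 14 post-mitotic libraries they were 6.82% and 64.0%. Only exact letters were counted, and the Hspa5 run above holds tatataag, a near match to TATAAA. These matches describe letters and were not tested for binding.

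The strength of a member in a library was taken as the rank of its best peak among all peaks of that library, ordered by the fold enrichment that the authors deposited, with rank 1 the strongest. Ranks are a place in a list and do not show a change shared by all genes. By the mean of −log2 rank over the 14 post-mitotic libraries, the cytosolic genes Hsp90ab1, Hspa8 and Hsp90aa1 took places 132, 146 and 163 among 9829 genes with a peak in all of them, that is, within the top 1.66%. Their ranks ran from 72 to 248 (Hsp90ab1), 34 to 222 (Hspa8) and 83 to 299 (Hsp90aa1), and these ranges overlap. Hspd1 followed at place 1068, with ranks of 373 to 2948 that do not overlap those of the 3 cytosolic genes, and Hspe1 at place 1779. The other 5 lay near or below the middle, Hspa4 at 4001, Hsph1 at 5083, Hspa9 at 5809, Hsp90b1 at 6363 and Hspa5 at 6426, and their ranks overlapped between neighbours in this order.

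In prometaphase, when transcription is largely shut down, 5 of 10 members kept a peak in all 4 libraries: Hspa8, Hsp90aa1, Hsp90ab1, Hspd1 and Hspe1. The share of the 9829 genes with post-mitotic peaks that were so detected was 10.4%, and 36.0% had a peak in 1 or more of the 4 libraries, against 9 of 10 members. Hsp90aa1 stood highest, with ranks of 50 and 82 in control and 57 and 66 in auxin-treated libraries, always on the peak 124 to 147 bp after its start. Hspa8 ranked 144 and 274 in control and 196 and 210 in auxin-treated libraries, with its summit 310 to 360 bp after the start. Hsp90ab1 ranked 241 and 390 in control and 247 and 343 in auxin-treated libraries. As shares of these short lists, the ranks were 1.3% to 2.7% for Hsp90aa1, 3.7% to 8.7% for Hspa8 and 6.2% to 14.2% for Hsp90ab1. At these 3 cytosolic genes the best mitotic peak lay at the start, and a minor share of the gene window was covered: Hsp90aa1 was covered over 6.23% to 14.4% of its window, Hspa8 over 11.1% to 29.9%, and Hsp90ab1 over 26.8% to 37.9%.

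The mitochondrial and reticulum members and the Hsp110 genes had weaker mitotic peaks, at the start in some libraries and elsewhere in others. Hspd1 ranked 393 and 484 in control and 1875 and 936 in auxin-treated libraries, and its best summit lay 1628 and 1262 bp past the gene end in the 2 control libraries, 218 bp after the start in auxin-treated replicate 1 and 2882 bp after it in replicate 2. Both chaperonin genes had a peak within 500 bp of a start in 3 of 4 prometaphase libraries. Hspe1 ranked 759 and 765 in control and 1875 and 930 in auxin-treated libraries, partly on peaks counted for Hspd1 as well. Hspa5 was detected in 3 of 4 libraries (ranks 2122, 1933 and 795, the last in auxin-treated replicate 1), and none of its mitotic peaks lay at its start. Hspa4 was detected in 3 of 4 at ranks 2338 to 2711, each time on a single narrow peak of 161 to 183 bp. Hsph1 was detected in 2, Hspa9 in 1 and Hsp90b1 in 0 of 4 libraries. The best peaks of Hspa4, Hspa9 and Hsph1 in control replicate 1 tie at a fold enrichment of 6.01 and the rank 2711, and for Hspa9 no other library had one.

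**Figure D2:**
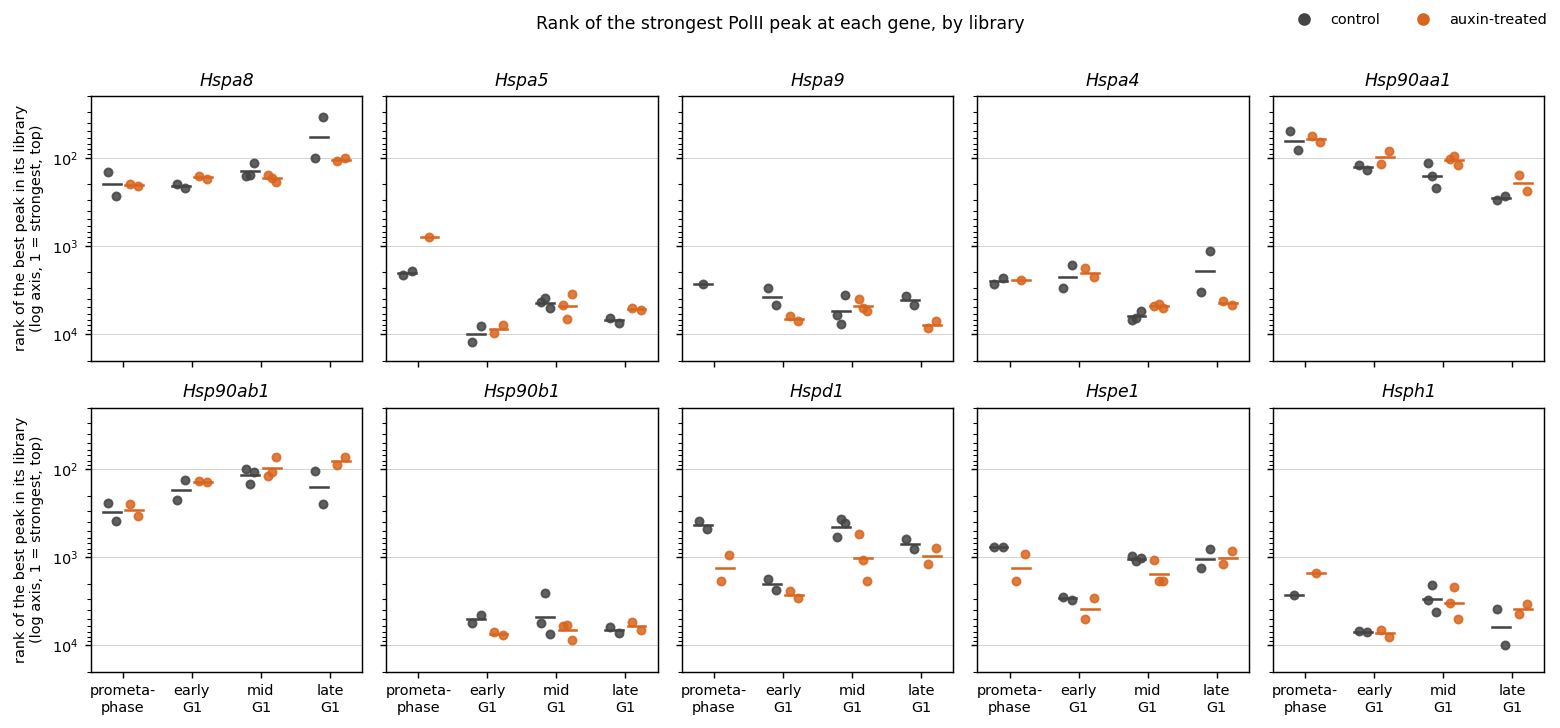
Rank of the best peak of each member in each library on a log axis, with rank 1 at the top. Points are libraries, grey for control and orange for auxin-treated, and bars are geometric means of the libraries with a peak. Hsp90aa1, Hspa8 and Hsp90ab1 had ranks under 400 at every stage, and libraries without a peak have no point. The prometaphase lists hold 2414 to 3918 peaks and the later lists 50594 to 117125, so ranks do not compare across that step.

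All 10 members were covered more after mitosis than in prometaphase. The percent of the window covered was higher in each of the 14 post-mitotic libraries than in any prometaphase library for every member, and the difference between the mean of the 6 post-mitotic groups and the mean of the 2 prometaphase groups passed the test in 10 of 10 (limma, Benjamini-Hochberg adjusted p from 2.69e-11 to 0.000365). Among the 12100 genes tested, those with a peak in at least 1 library, 88.3% were called higher after mitosis. A gain of some size is thus what most genes with peaks showed. Its median was 62.6 percentage points over the members and 10.8 over all genes tested. These sets are unlike, since every member had a peak in all 14 post-mitotic libraries and a tested gene needed only 1 library. No share over all genes is given here for the separation of single libraries. Among the members the gain was largest at Hspe1 and Hspd1, with 79.9 ± 4.91 and 79.5 ± 4.71 percentage points (difference ± SE). It was smallest at Hsph1, with 27.9 ± 5.16 points. The cytosolic genes Hspa8 and Hsp90ab1 gained 70.6 ± 2.64 and 68.1 ± 1.47 points, Hsp90aa1 gained 55.3 ± 4.13, and the remaining 4 members between 58.3 (Hspa9) and 65.2 points (Hsp90b1). The depth of the libraries differed between these stages, and its part in the gain was not tested. In mid-G1 control replicate 1, whose depth of 4.54 reads per kb was below that of all 4 prometaphase libraries, coverage ran from 13.0% (Hsph1) to 98.6% (Hsp90ab1), above each prometaphase library for all 10 members.

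**Figure D3:**
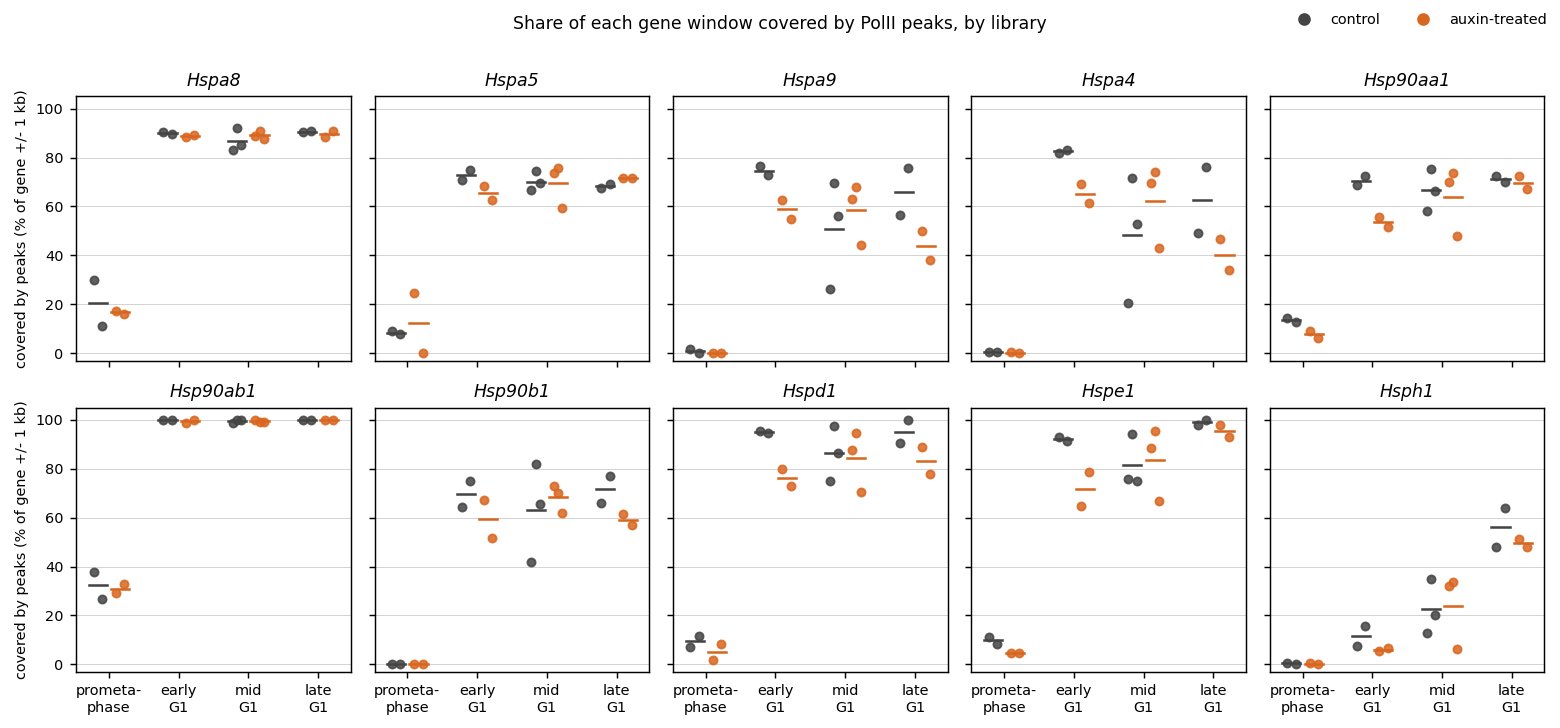
Percent of each gene window (gene plus and minus 1 kb) covered by PolII peaks in each library, with control in grey and auxin-treated in orange and bars at the group mean. All members gained coverage between prometaphase and early-G1, and Hsph1 alone stayed under 16% in early-G1 and reached 48.0% to 64.0% in late-G1.

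Between early-G1 and late-G1 the members moved in different directions. Over both conditions, 4 of 10 members changed rank at an adjusted p under 0.05, 3 towards a stronger place and 1 towards a weaker one, where 13.3% of 9829 genes were called, 6.26% stronger and 7.09% weaker in late-G1. All differences below are late-G1 minus early-G1 in −log2 rank, so that a difference of 1 is a rank number 2 times smaller, tested with limma. Where sets of libraries are said not to overlap, this describes their values, and no share over all genes is given for it.

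The chaperonin pair rose. Hspe1 ranked 2814 and 3029 in control and 4999 and 2948 in auxin-treated early-G1 libraries, and 1329 and 818 in control and 1189 and 859 in auxin-treated late-G1 libraries. The 2 sets of 4 did not overlap, and the difference was 1.71 ± 0.29 (SE, adjusted p = 0.00145). Hspd1 ranked 1761 and 2367 (control) and 2420 and 2948 (auxin-treated) in early-G1, and 625 and 818 (control) and 1189 and 780 (auxin-treated) in late-G1. These sets did not overlap either, with a difference of 1.49 ± 0.35 (adjusted p = 0.0104; on the log2 fold enrichment scale 0.41, adjusted p = 0.0597). In the 6 mid-G1 libraries Hspd1 already ranked between 373 and 1862 (median 572) and Hspe1 between 971 and 1862. Because the strongest Hspe1 peak lies inside Hspd1, Hspe1 was not called when only peaks on the gene itself counted (1.01, adjusted p = 0.239), whereas Hspd1 was (1.49, adjusted p = 0.0135).

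Hspa8 ranked 198 and 222 in control and 161 and 172 in auxin-treated early-G1 libraries, and 99 and 34 in control and 109 and 100 in auxin-treated late-G1 libraries. Every late-G1 library was stronger than every early-G1 library, with a difference of 1.26 ± 0.31 (adjusted p = 0.0128). The rank of 34 belongs to the peak past the 3′ end in control replicate 3. When the peak at the transcript start was followed instead, a setting added after the data were seen, that library ranked 236, the late-G1 ranks were 99, 236, 109 and 100, and the difference was 0.56 (adjusted p = 0.222). The call for Hspa8 thus rests on which of its peaks is counted, and it was also lost on the log2 fold enrichment scale (0.36, adjusted p = 0.0900).

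Hsp90aa1 fell. It ranked 120 and 137 in control and 117 and 83 in auxin-treated early-G1 libraries, and 299 and 274 in control and 158 and 237 in auxin-treated late-G1 libraries. The sets did not overlap, and the difference was −1.07 ± 0.27 (adjusted p = 0.0176). The fold enrichment of its best peak was between 64.8 and 80.9 in early-G1 and between 50.9 and 64.3 in late-G1. The call was lost on the log2 fold enrichment scale (−0.23, adjusted p = 0.363), and without early-G1 control replicate 1, early-G1 auxin-treated replicate 2 or late-G1 auxin-treated replicate 2, one at a time (adjusted p from 0.0659 to 0.0801).

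The paralog Hsp90ab1 did not pass the test (0.44 ± 0.31, adjusted p = 0.408), with ranks of 133 to 224 in early-G1 and 72 to 248 in late-G1. Hspa5, the reticulum Hsp70, ranked 12214 and 8066 in control and 9815 and 7819 in auxin-treated early-G1 libraries, and 6570 and 7433 in control and 5052 and 5304 in auxin-treated late-G1 libraries. Its sets did not overlap, but the difference of 0.63 ± 0.27 did not pass the correction (adjusted p = 0.136), although on the log2 fold enrichment scale it did (0.53, adjusted p = 0.0283). The Hspa5 ranks of the 2 stages belong partly to different peaks. The best summit lay 4872 to 5640 bp after the first-numbered start, past the gene end, in early-G1. In late-G1 it lay at 1173 and 5600 bp in control and at 944 and 2216 bp in auxin-treated libraries. The best peak near the gene end ranked 7819 to 12214 in early-G1 and 7433 to 24957 in late-G1, which overlap. Hsph1 (0.55 ± 0.35, adjusted p = 0.338), Hspa4 (−0.48 ± 0.32, adjusted p = 0.372), Hspa9 (−0.19 ± 0.29, adjusted p = 0.731) and Hsp90b1 (−0.07 ± 0.32, adjusted p = 0.921) were not called. Hspa4 ranked 1642 to 3019 in early-G1 and 4578 to 6895 in mid-G1, sets that do not overlap, and 1141 to 4681 in late-G1. The early-to-mid step was not tested.

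**Figure D4:**
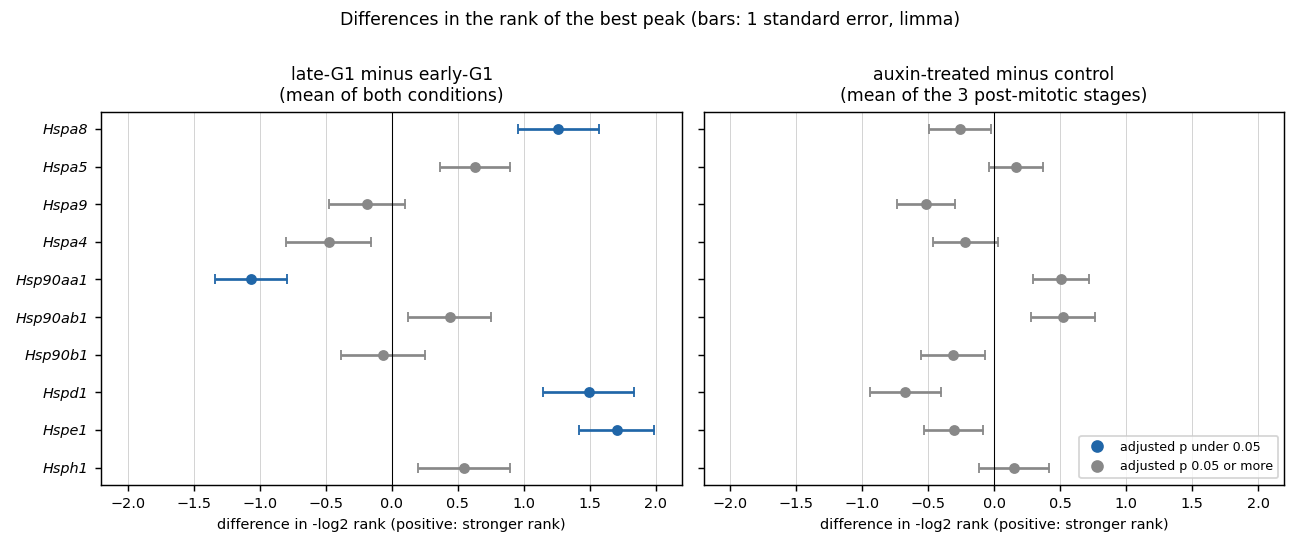
Difference in −log2 rank of the best peak for the 10 members, late-G1 minus early-G1 (left) and auxin-treated minus control (right), each from −2.2 to 2.2 on the axis. Points are limma estimates, bars 1 standard error, and blue marks an adjusted p under 0.05. Hspe1, Hspd1 and Hspa8 were called stronger and Hsp90aa1 weaker in late-G1, and none was called for auxin.

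Coverage changed between early-G1 and late-G1 at a single member, Hsph1. Peaks covered 7.43% and 15.6% of its window in control and 5.26% and 6.60% in auxin-treated early-G1 libraries, and 48.1% and 64.0% in control and 51.2% and 48.0% in auxin-treated late-G1 libraries. The early-G1 and late-G1 libraries were far apart, by 44.1 ± 7.11 percentage points (limma, adjusted p = 0.00647). The 6 mid-G1 libraries, from 6.18% to 34.8%, overlapped those of early-G1 and lay below all of late-G1. The early-G1 libraries had depths of 7.53 to 11.8 reads per kb and the late-G1 libraries 8.01 to 13.3, and with depth as a covariate the difference was 41.5 points (adjusted p = 0.00478). The background was 11.6% of 12100 genes called in either direction and 3.35% called higher in late-G1. The gain was 44.6 ± 10.1 points in control (adjusted p = 0.0467) and 43.7 ± 10.1 in auxin-treated cells (adjusted p = 0.0756). The ranks of Hsph1 overlapped between the stages, with 6705 to 8063 in early-G1 and 3443 to 9844 in late-G1.

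The coverage gained on Hsph1 was not even along the gene. When its first-numbered transcript was divided into 4 equal parts, the fourth, at the 3′ end, was covered over 0.00% and 19.9% in control and 3.37% and 4.32% in auxin-treated early-G1 libraries, and over 97.7% and 82.3% in control and 93.1% and 89.4% in auxin-treated late-G1 libraries. The 6 mid-G1 libraries ranged from 0.00% to 82.1% in that part. The first part was covered over 5.15% to 9.60% in early-G1 and 28.7% to 51.5% in late-G1, and the second over 0.00% to 3.76% in early-G1 and 0.00% to 64.9% in late-G1. The third part had no peak in early-G1 and was covered over 31.7% to 45.2% in late-G1. The parts were described and not tested.

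**Figure D5:**
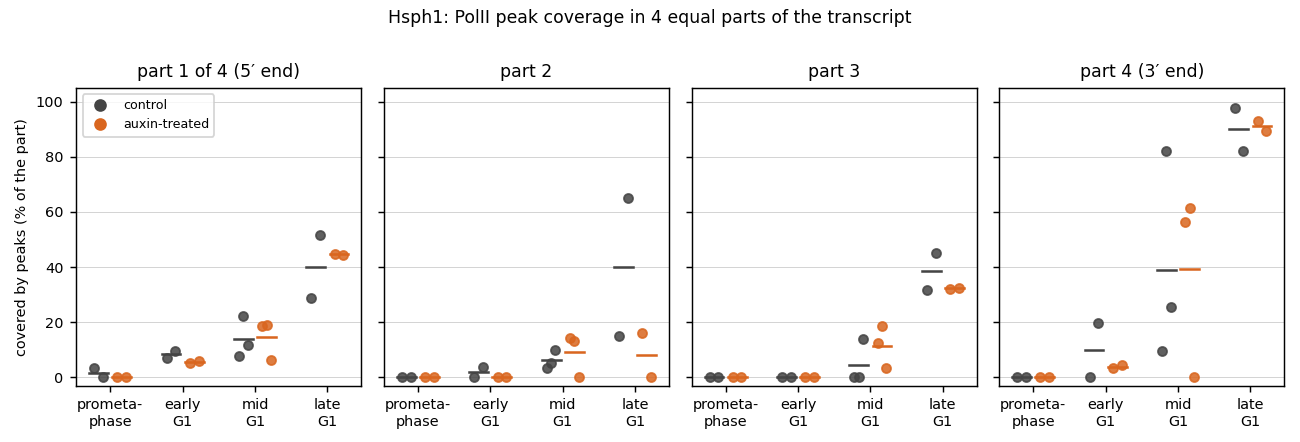
Percent of each of 4 equal parts of the Hsph1 transcript covered by PolII peaks in each library, from the 5′ end (left) to the 3′ end (right), with control in grey, auxin-treated in orange and bars at the group mean. The part at the 3′ end was nearly filled in late-G1, between 82.3% and 97.7%, and at or under 19.9% in early-G1.

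No other member passed the test on coverage. Hspe1 differed by 15.1 ± 6.75 points (adjusted p = 0.187), Hsp90aa1 by 8.44 ± 5.66 (adjusted p = 0.382) and Hspa4 by −22.4 ± 11.7 (adjusted p = 0.254). Coverage of Hspa4 varied widely between libraries of a stage, from 20.4% to 74.0% in mid-G1, where the lowest value belongs to the shallowest library.

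Auxin treatment, which depletes the CTCF protein in these cells, moved no member past the correction. Averaged over the 3 post-mitotic stages, 0 of 10 members were called in rank (limma), where 0.804% of 9829 genes were. At an unadjusted p under 0.05 there were 4 of 10, against 9.68% of all genes. These 4 comprise both cytosolic Hsp90 genes, with auxin-minus-control differences of 0.51 ± 0.21 for Hsp90aa1 (adjusted p = 0.444) and 0.52 ± 0.24 for Hsp90ab1 (adjusted p = 0.507), and 2 mitochondrial genes, with −0.67 ± 0.27 for Hspd1 (adjusted p = 0.408) and −0.52 ± 0.22 for Hspa9 (adjusted p = 0.460). The best Hspd1 summit lay past the 3′ end in all 7 post-mitotic control libraries but near the start in 3 auxin-treated ones. The Hspd1 difference thus partly compares unlike peaks. In mid-G1, Hspd1 ranked 597, 373 and 408 in control and 547, 1082 and 1862 in auxin-treated libraries, which overlap. Hsp90aa1 ranked 114, 159 and 221 in mid-G1 control and 104, 96 and 121 in auxin-treated libraries, which overlap as well. The other 6 members differed by −0.31 (Hsp90b1 and Hspe1) to 0.16 (Hspa5). In a simulation of this comparison 47 of 100 shifts of 1 were recovered, so differences of the size seen here can be missed.

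Within single stages 0 of 10 members were called as well. In early-G1 0.0916% of all genes were called and 0 members had an unadjusted p under 0.05, against 4.10% of genes. In mid-G1 the background was 0.214% called and 8.96% at an unadjusted p under 0.05, with 1 member, Hspd1 (−1.20 ± 0.40, adjusted p = 0.382). In late-G1 it was 0.254% and 8.76%, with 3 members, Hspa4 (−1.19 ± 0.45), Hsp90ab1 (1.00 ± 0.44) and Hspa9 (−0.91 ± 0.41). Leaving out late-G1 control replicate 2 made Hspa4 (−1.96, adjusted p = 0.0271) and Hspa8 (−1.62, adjusted p = 0.0409) pass, and leaving out replicate 3 instead gave −0.42 and −0.08, so the late-G1 values of these genes depend on which control library is used. The single control library left in such a fit is assumed to vary like the other groups. The late-G1 difference of Hspa8 was −0.85 with both libraries, 0.55 with the gene alone, the summit in the window or the start peak, and 0.21 on the log2 fold enrichment scale. For a difference of the auxin effect between stages, 0 of 10 members were called and 0.0203% of all genes, and 1 member, Hspa4, had an unadjusted p under 0.05, against 4.86% of genes.

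On coverage, auxin called 0 of 10 members, and 0 had an unadjusted p under 0.05, where 0.0744% and 7.12% of 12100 genes were. The differences, auxin-treated minus control, ran from −10.9 ± 4.89 percentage points at Hspd1 (adjusted p = 0.700) to 0.07 ± 1.33 at Hspa8. The control libraries of early-G1 and late-G1 had depths of 8.15 to 13.3 reads per kb and the auxin-treated ones 7.53 to 9.23, and the part of depth in these differences was not tested.

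In prometaphase, rank could be compared for the 5 members with a peak in all 4 libraries. The test called 0 of 5 members and 0.00% of 1029 genes, while 6.03% of the genes and 1 of the 5 members had an unadjusted p under 0.05. That member was Hspd1, whose control libraries ranked 393 and 484 and whose auxin-treated libraries ranked 1875 and 936 (−1.60 ± 0.59, limma, adjusted p = 0.651). The differences of Hspa8, Hsp90aa1 and Hsp90ab1 lay between −0.03 and 0.08, with standard errors of 0.58 to 0.59, which do not resolve changes of that size with 2 libraries a group.

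The wider chaperone network was taken from 8 lists of genes, of which 89 genes outside the members could be tested on rank. Between early-G1 and late-G1, 7 of 89 rose and 5 fell, and 0 were called for auxin, beside 6.26%, 7.09% and 0.804% of all genes, so these counts are near the background and are given as a description. Of 23 J-domain protein genes, the cochaperones that start the Hsp70 cycle, 2 rose and 2 fell, with a median difference of −0.15 beside 0.00 over all genes. Dnajc3, a reticulum cochaperone of BiP, rose by 2.13 ± 0.35 (adjusted p = 0.00136) from ranks of 3055 to 4659 in early-G1 to 532 to 1358 in late-G1. Dnajb2 rose by 1.26 ± 0.29, and Dnajc9 and Dnajc11 both had a difference of −1.03.

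Of 20 Hsp70 and Hsp90 cochaperone genes 1 rose and 1 fell, with a median of 0.21. Sugt1, an Hsp90 cochaperone, rose by 1.63 ± 0.29 (adjusted p = 0.00197), and Ppid, the cyclophilin 40 gene, changed by −1.67 ± 0.38 (adjusted p = 0.0101), from ranks of 435 to 1147 to ranks of 931 to 3365. Of 13 genes of the cytosolic CCT chaperonin and its partner prefoldin, 0 rose and 1 fell, with a median of −0.01. The one was Pfdn2, a prefoldin subunit (−2.02 ± 0.34, adjusted p = 0.00144), which ranked 461 to 780 in early-G1 and 1612 to 2912 in late-G1.

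Of 14 endoplasmic reticulum folding genes 1 rose, Ero1l, the oxidase that recharges disulfide isomerases (1.50 ± 0.47, adjusted p = 0.0479), and 0 fell, with a median of −0.22. Of 8 mitochondrial folding and import genes 0 were called in either direction, with a median of −0.20. Of 6 other Hsp70 and Hsp110 genes 1 rose, Hspa2 (1.47 ± 0.34, adjusted p = 0.0101), and 1 fell, Hspa14 (−1.18 ± 0.37, adjusted p = 0.0491). Of 2 small heat shock protein genes that could be tested 1 rose, Hspb9 (1.39 ± 0.24, adjusted p = 0.00179), and of 3 heat shock factor genes 1 rose, Hsf4 (1.47 ± 0.40, adjusted p = 0.0242).

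Mitotic peaks in all 4 prometaphase libraries were present on 4.60% of all protein-coding genes and on 10.4% of those with a peak in all 14 post-mitotic libraries. Among 24 J-domain protein genes they were present on 2, Dnaja1 (mean rank 251 ± 88.0, SD, n = 4) and Dnajb4 (606 ± 272). In the reticulum list they were present on 4 of 14 genes, the 3 strongest being Calr, P4hb and Manf, and Calr, the lectin chaperone calreticulin, had a mean rank of 206 ± 90.3. On 1 gene each they were present in the list of other Hsp70 genes (Hspa2, 553 ± 239), the cochaperones (Ptges3, 1674 ± 1285) and the cytosolic chaperonin (Cct5, 373 ± 172). The mitochondrial list had 2 of 8, Lonp1 and Trap1, and the small heat shock protein and heat shock factor lists 0. None of these mean ranks reached that of Hsp90aa1, which was 63.8 ± 13.8.

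The mean −log2 rank profile of the 10 members over the 14 post-mitotic libraries was most like that of Nupl1 (Pearson r = 0.914), Tbc1d2 (0.913), Acot8 (0.910), Relt (0.910) and Zswim3 (0.902), chosen as the 5 highest among genes outside all lists. Acot8 and Zswim3 had the same ranks in mid-G1 and late-G1 since they share a peak. These values describe 14 libraries that share stage and depth and were given no test.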

How the data were processed

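PolII ChIP-seq peaks of 18 libraries were analysed, and the 4 input samples were not used here. Per the labels and the study's methods, the authors aligned reads to mm9 (Bowtie2 2.2.9), removed low-quality alignments and duplicates (SAMtools 0.1.19, bedtools 2.27.1) and called peaks per library with MACS2 2.1.0. Each deposited list gives per peak the fold enrichment (a linear ratio), −log10 p-value and −log10 q-value, and a whole-number score that the authors' caller wrote. The fold enrichment was used here only to rank peaks within a list, and the score only to read the file. Peaks were assigned to GENCODE vM1 genes with a 1 kb flank. Rank (−log2) and covered percent were fitted over all genes with limma 3.58.1 in R 4.3.3 on group means, with Benjamini-Hochberg adjusted p under 0.05 as the threshold. A simulation on 9829 genes of the auxin comparison recovered 47 of 100 shifts of 1 and 96 of 100 shifts of 2, with 9 false calls at each. Depth was recovered from the p-values and fold enrichments, and limits detection where it is low. Sequences came from the mm9 genome and were read in Python 3.11.15 with pysam 0.24.0, and 1 sequence is not reported here. Members and gene lists were chosen with earlier results of these data known. All members were named; per list and comparison, up to 2 genes per direction with the largest change among those called, the 3 best-ranked mitotic genes and the 5 most similar profiles were named. Replicates are those numbered in the labels, and p-values measure the spread between these libraries. Same-numbered libraries of a stage correlated by 0.02 to 0.28 and were not paired.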

Additional observations from a re-analysis of the deposited data

How the results depend on the processing

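The number of members called for rank between early-G1 and late-G1 was 4 and the value was 2 with peaks on the gene alone, 2 with the summit required in the window (9 members could be tested), 2 on the log2 fold enrichment scale and 2 with normal scores. It was 3 with a variance trend and with the peak at a transcript start, a setting chosen after seeing the data. Leaving out a library at a time gave 3 to 4. The auxin call count in late-G1 was 0, and ranged from 0 to 2 over the left-out libraries. The 13 lost calls among single members all concern rank between early-G1 and late-G1: 6 for Hsp90aa1, 5 for Hspa8, 1 for Hspd1 and 1 for Hspe1. The causes were not tested.

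Directions turned only for members that were not called in either setting. With the replicate block, which treats same-numbered libraries as pairs, the auxin difference in rank was 0.02 for Hspa8, 0.01 for Hspa4 and −0.01 for Hsph1, and 4 members were called between early-G1 and late-G1 as without it. The numbers share no known culture or day, so this says nothing of a weaker effect. The Hspa8 auxin difference in rank was 0.29 with the gene alone, 0.29 with the summit in the window and 0.29 with the start peak, and its auxin difference in coverage was −0.29 points with the gene alone. In rank between early-G1 and late-G1, Hspa9 was at 0.23 with the summit in the window, and Hsp90b1 at 0.0027 on the log2 fold enrichment scale and 1.05 with the start peak. Hsp90aa1 was at −0.06 for auxin in prometaphase with ranks among genes. With depth as a covariate, chosen after seeing the data, coverage between early-G1 and late-G1 differed by −0.09 points for Hspa8 and −3.90 for Hsp90b1.

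With single libraries left out, the auxin difference in rank ranged from −0.48 to 0.04 for Hspa4 and from −0.07 to 0.37 for Hsph1, and in prometaphase from −0.49 to 0.43 for Hspa8, −0.29 to 0.42 for Hsp90aa1 and −0.27 to 0.42 for Hsp90ab1. The late-minus-early rank of Hsp90b1 ranged from −0.14 to 0.01. The auxin difference in coverage ranged from −0.55 to 0.93 points for Hspa8 and from −2.71 to 0.02 for Hspa5. The late-minus-early coverage ranged from −0.10 to 1.21 points for Hspa8, −0.56 to 2.26 for Hspa5 and −2.98 to 4.70 for Hsp90b1. The gain of Hsph1 in coverage was called under all alternatives run, from 40.1 to 48.1 points, or 2.65 on the log2 scale of covered bases (adjusted p from 0.00295 to 0.0292). A shallow library detects fewer weak peaks, and the shallowest, mid-G1 control replicate 1, enters no early-to-late contrast except through the shared spread.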
